A study of Zygosaccharomyces bailii with 18 samples.

Results

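The genes of the proteasome were followed in the spoilage yeast Zygosaccharomyces bailii, in strain IST302 and its Zbhaa1∆ deletion mutant, which lacks the homologue of the Saccharomyces cerevisiae transcription factor gene HAA1. An ORF was taken as a proteasome gene when its S. cerevisiae homologue, as named in the study's supplementary tables, was a core particle subunit, a regulatory particle subunit, an assembly factor, an alternative cap or adaptor, or the regulator RPN4. This gave 40 ORFs of the 1701 that at least 1 of the 6 deposited comparisons lists. They comprised 14 core particle genes, 19 regulatory particle genes and 7 others, and every core and regulatory particle subunit searched for was found. Of the 1701 listed ORFs, 94 were absent from the supplementary tables, and many others had no S. cerevisiae homologue named there. A proteasome gene among either kind would have been missed. The homologues of POC4, ADD66 and RPN14 were not among the named ones.

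The 18 libraries fell into 6 groups of 3: the Zbhaa1∆ mutant exposed to 0.08 mM copper, the mutant exposed to 140 mM acetic acid, the unstressed mutant, the parental strain exposed to 0.08 mM copper, the parental strain exposed to 140 mM acetic acid, and the unstressed parental strain. All cells were grown in minimal medium with glucose at pH 4.0. Stressed cells were collected an hour after the stress was added and unstressed cells when it would have been added, so in a comparison of stressed with unstressed cells the stress and the added hour of growth cannot be told apart. The deposited files hold no value per library, only the authors' comparisons of groups, which give a log2 fold change, a mean level over both groups (as log2 CPM, read counts scaled to a common library size) and a false discovery rate (FDR) for the genes with an FDR below 0.05 and a change of at least 1.5-fold, which is 0.585 on the log2 scale. A gene that passed both limits is called listed here. A gene that is not listed has no value in that comparison, and its change may lie anywhere under either limit. The groups of 5 tables are those of the libraries that the labels tie to each table. The table of the mutant in acetic acid against the unstressed mutant is not tied to any library, and its groups were read from its name. The study's supplement heads the same values for mutant cells in copper as a comparison with unstressed cells. So it does for the mutant against the parental strain in acetic acid. Where the study's main text selects genes that depend on the deleted regulator, it instead describes the stressed mutant relative to the equally stressed parental strain. The labels were followed here, and for copper the levels described below bear on the reading. The deleted gene, ZbHAA1, was listed in 0 of the 6 tables, so the tables do not check the genotype labels. Depth per library is not given by the files. In such bulk libraries a change in all cells and a larger change in some of them cannot be told apart.

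In S. cerevisiae, where these proteins were studied, the core particle is a barrel of stacked rings in which the outer alpha rings form the gate and the inner beta rings hold the proteolytic sites. The regulatory particle sits on the ends of the barrel. Its base contains the Rpt ATPases, which unfold the substrate and thread it into the core, and its lid removes the ubiquitin chain by which the substrate was marked. Rpn4 is a short-lived transcription factor that activates proteasome genes and is itself degraded by the proteasome. All roles given for the Z. bailii homologues are those known from S. cerevisiae.

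In the parental strain, mRNA levels of nearly the whole core particle were higher in copper. Of its 14 genes, 13 (92.9%) were listed as higher in copper-exposed cells than in unstressed cells, where 2.45% of all genes tested were higher, and 0 were lower. The 7 alpha ring genes were all listed, with log2 fold changes of 0.63 to 0.75 and a median of 0.70. The SD over the 7 was 0.042 on the log2 scale, and the standard errors of the single log2 fold changes were at most 0.262 to 0.318 over the listed core genes. These errors were worked out from the FDR, taken as if it were a p-value, and are therefore upper values.

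The level in each group was solved from its fold change and the mean level of both groups. Among the alpha ring genes, PRE10 (ZBIST_1575) stood at 678 CPM in copper, against 403 CPM in unstressed parental cells, a log2 fold change of 0.75. PRE8 (ZBIST_4146) stood at 657 CPM in copper, against 420 CPM in unstressed parental cells, or 0.64 on the log2 scale. PRE6 (ZBIST_3796) stood at 149 CPM in copper, against 90.9 CPM in unstressed parental cells, or 0.72. Alpha ring genes of high and of low level thus rose by about the same factor. The remaining ones were SCL1 (ZBIST_3926, 0.71), PUP2 (ZBIST_0705, 0.70), PRE9 (ZBIST_2066, 0.70), the alpha subunit gene that S. cerevisiae can lose and live, and PRE5 (ZBIST_0627, 0.63).

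Of the 7 beta ring genes, 6 were listed as higher in parental cells in copper, and these included the genes of all the catalytic subunits. PUP1 (ZBIST_4866), which carries the trypsin-like site, had the largest log2 fold change of the core in this comparison. It stood at 257 CPM in copper, against 138 CPM in unstressed parental cells, a log2 fold change of 0.90 (standard error at most 0.32, FDR 0.00476). PRE3 (ZBIST_0240), which carries the caspase-like site, stood at 965 CPM in copper, against 616 CPM in unstressed parental cells, or 0.65 on the log2 scale. PRE2 (ZBIST_3754), which carries the chymotrypsin-like site, stood at 381 CPM in copper, against 249 CPM in unstressed parental cells. Its log2 fold change of 0.61 (FDR 0.0204) was the smallest of the listed core genes, so the catalytic subunit genes held both ends of the range. The beta subunit genes without a site of their own were PRE7 (ZBIST_1801, 0.83), PUP3 (ZBIST_4217, 0.71) and PRE4 (ZBIST_3184, 0.65). PRE1 (ZBIST_3633) was the only core gene not listed in this comparison.

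Of the regulatory particle, 4 of 19 genes (21.1%) were listed in parental cells in copper, all of them higher. They did not share a place in the particle. RPN13 (ZBIST_3053), a ubiquitin receptor of the base, stood at 197 CPM in copper, against 106 CPM in unstressed parental cells, a log2 fold change of 0.90 (FDR 0.00524). RPT5 (ZBIST_2142), an ATPase of the base, stood at 650 CPM in copper, against 394 CPM in unstressed parental cells, or 0.72 on the log2 scale. The lid genes were RPN7 (ZBIST_3759, log2 fold change 0.70, FDR 0.0248) and SEM1 (ZBIST_2141, 0.81), whose product is a very small protein of the lid. SEM1 and RPT5 are neighbouring genes in the annotation of the strain, and counts near a shared end were not checked. The other 8 base genes and 7 lid genes were not listed.

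The gap between the core and the regulatory particle in parental cells in copper was 71.8 percentage points of genes listed. The median log2 fold change was 0.70 over the 13 listed core genes and 0.77 over the 4 listed regulatory genes. The core genes lay at ranks 40 to 117 of the 121 genes listed as higher, and the regulatory genes at ranks 39 to 88. Most listed core genes lay close to the 1.5-fold limit, with PUP1 (0.90) and PRE7 (0.83) further past it. With the limit raised to 0.807 on the log2 scale, 2 core and 2 regulatory genes remained, a gap of 3.76 percentage points, and with an FDR limit of 0.01, 4 core genes and 1 regulatory gene. Since regulatory genes that were not listed have no value, no difference in fold change between both particles could be tested. The listed core genes were also abundant, with a median average log2 CPM of 8.30, against 6.89 over all genes listed as higher in that table.

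**Figure D1:**
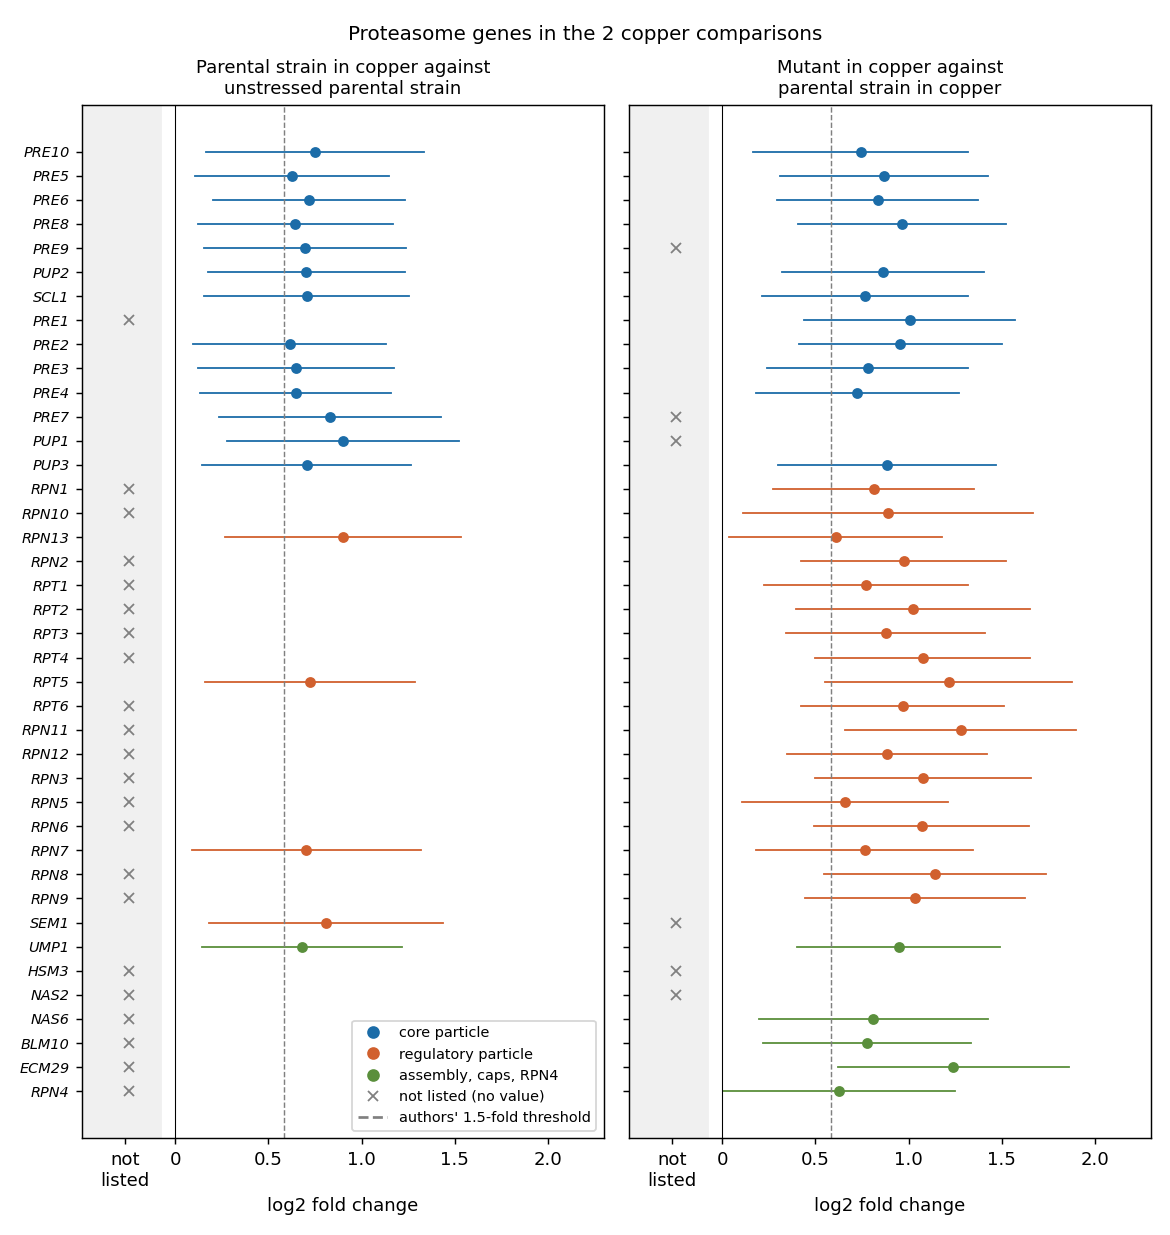
Log2 fold changes of the 40 proteasome genes in parental cells in copper against unstressed parental cells (left) and in mutant cells in copper against parental cells in copper (right). Points are the authors' deposited values, lines are approximate 95% intervals worked out from the FDR, the dashed line is the 1.5-fold limit, and crosses in the grey band mark genes that were not listed and have no value; 13 core and 4 regulatory genes have a point on the left, against 11 core and 18 regulatory genes on the right.

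Deletion of ZbHAA1 was accompanied by higher mRNA levels of most of the proteasome in copper. Between mutant and parental cells, both in copper, 34 of the 40 genes were listed as higher in the mutant and 0 as lower, where 13.5% of all genes tested were higher. A gene could be among the 40 only if some comparison listed it, so the 34 of 40 is partly fixed by that choice. The 14 core and 19 regulatory genes, by contrast, are all the subunits searched for. The regulatory particle was listed almost whole, at 18 of 19 genes (94.7%), and the core at 11 of 14 (78.6%). This table listed 663 genes as higher and 638 as lower in the mutant, so the proteasome genes moved within a broad difference between the strains.

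In the regulatory particle, all 10 base genes were higher in the mutant in copper. Of the ATPase genes, RPT5 was at 1538 CPM in mutant cells, against 662 CPM in parental cells, a log2 fold change of 1.22 (standard error at most 0.34). RPT2 (ZBIST_0958), the ATPase gene of lowest level, was at 195 CPM in mutant cells, against 96.2 CPM in parental cells, or 1.02 on the log2 scale. The other ATPase genes were RPT4 (ZBIST_0489, 1.08), RPT6 (ZBIST_4370, 0.97), RPT3 (ZBIST_4889, 0.88) and RPT1 (ZBIST_0279, 0.77). The scaffold genes RPN2 (ZBIST_2445) and RPN1 (ZBIST_4016) had log2 fold changes of 0.97 and 0.81. The ubiquitin receptor gene RPN10 (ZBIST_4516) had 0.89, with the largest error of the set in this comparison (standard error at most 0.40, FDR 0.0255). RPN13, also a ubiquitin receptor gene, was lowest at 0.61 (FDR 0.0372), with 307 CPM in mutant cells, against 201 CPM in parental cells.

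Of the 9 lid genes, 8 were higher in the mutant in copper, with a median log2 fold change of 1.05, and SEM1 was not listed. RPN11 (ZBIST_2609), which encodes the deubiquitinase of the lid, had the largest log2 fold change of the 40 genes. It stood at 330 CPM in mutant cells, against 136 CPM in parental cells, or 1.28 on the log2 scale (approximate 95% interval 0.66 to 1.90, FDR 5.16e-05). RPN8 (ZBIST_0486), the partner of RPN11 in the lid, came next among lid genes at 1.14, with 285 CPM in mutant cells, against 129 CPM in parental cells. RPN3 (ZBIST_4420, 1.08), RPN6 (ZBIST_1952, 1.07) and RPN9 (ZBIST_3328, 1.03) were also more than 2-fold higher, whereas RPN12 (ZBIST_3179, 0.88), RPN7 (0.76) and RPN5 (ZBIST_4474, 0.66) were not. In all, 5 of 9 lid genes, 3 of 10 base genes and 1 of 14 core genes exceeded 2-fold. The SD over the 18 listed regulatory genes was 0.18 on the log2 scale, beside standard errors of at most 0.273 to 0.398, and their approximate 95% intervals, which are too wide, all overlapped, so the order among single subunits is given as a description.

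In the core particle, PRE1, not listed in parental cells in copper against unstressed ones, had the largest log2 fold change between mutant and parental cells. It stood at 550 CPM in mutant cells, against 274 CPM in parental cells, or 1.01 on the log2 scale (standard error at most 0.29, FDR 0.00053). Of the catalytic subunit genes, PRE2 stood at 753 CPM in mutant cells, against 388 CPM in parental cells, or 0.96. PRE3 stood at 1687 CPM in mutant cells, against 983 CPM in parental cells, or 0.78. PUP1, the gene of the trypsin-like site and the core gene with the largest change in the parental comparison, was not listed between the strains. PRE7, next in the parental comparison, and PRE9 were not listed either. Parental libraries in copper are the tested group of the parental comparison and the reference of this one. An error in their level moves both fold changes in opposite directions, so such swaps were not read as a difference between genes. The alpha ring genes PRE8 (0.97), PRE5 (0.87), PUP2 (0.86), PRE6 (0.83), SCL1 (0.76) and PRE10 (0.74) and the beta ring genes PUP3 (0.88) and PRE4 (0.72) completed the 11 listed core genes, whose median was 0.86.

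Beside the 2 particles, the accessory genes followed in part. UMP1 (ZBIST_2312), the chaperone enclosed and degraded when the core matures, stood at 171 CPM in mutant cells in copper, against 88.7 CPM in parental cells in copper, a log2 fold change of 0.95. It was also listed in the parental comparison, at 0.68 (FDR 0.0134). ECM29 (ZBIST_4541), which tethers the core to the regulatory particle, was at 169 CPM in mutant cells, against 71.6 CPM in parental cells, or 1.24. BLM10 (ZBIST_2583), an alternative cap of the core, had 0.78, and NAS6 (ZBIST_1174), a chaperone of base assembly, had 0.81. RPN4 (ZBIST_4741), the regulator, was at 37.9 CPM in mutant cells, against 24.5 CPM in parental cells. Its log2 fold change of 0.63 lay at the edge of both limits, with an FDR of 0.0492 and an approximate 95% interval of 0.0023 to 1.25, and it was not listed in parental cells in copper against unstressed ones.

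Between the strains in copper the gap between the particles ran the other way, at -16.2 percentage points, core minus regulatory, and the median log2 fold changes were 0.86 over the listed core genes and 0.97 over the listed regulatory genes. With an FDR limit of 0.01 it was -2.26 percentage points and with the fold limit at 2, -35. The same parental libraries in copper enter both gaps, on opposite sides, and the change of sign was not tested. The members were not among the largest changes in the table: their median of 0.88 matched the median of all 663 genes listed as higher, and the highest-ranked of them, RPN11, was at rank 134 of 663. Their levels were high, with a median average log2 CPM of 8.22, against 6.22 over those 663 genes. The proteasome genes made up 5.13% (34 of 663) of the genes listed as higher between the strains in copper. They made up 14.9% (18 of 121) of those listed as higher in parental cells in copper. The smaller share goes with the longer list, since more proteasome genes were listed between the strains.

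**Figure D2:**
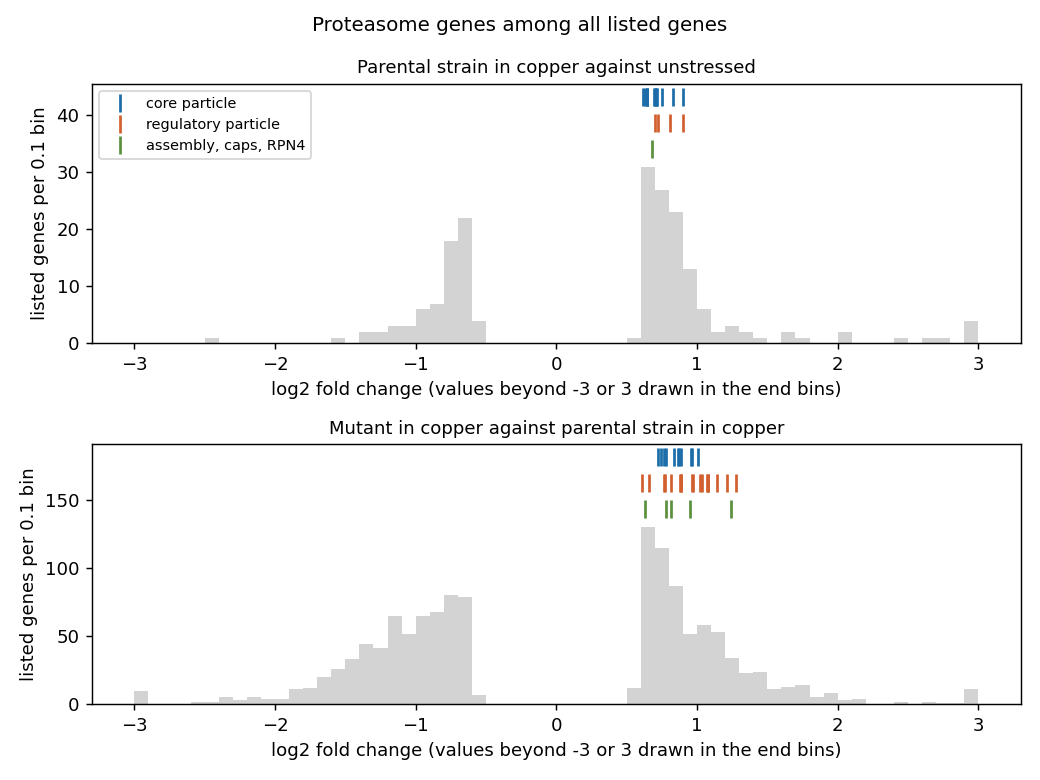
Numbers of all listed genes per 0.1 of log2 fold change (grey bars; the few values beyond the axis drawn in the end bins) in parental cells in copper against unstressed parental cells (top) and in mutant cells in copper against parental cells in copper (bottom), with each proteasome gene as a coloured tick above. The empty middle is the 1.5-fold limit of the deposited tables; every proteasome tick is on the higher side, at 0.61 to 0.90 in the top plot and 0.61 to 1.28 in the bottom plot.

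For 14 genes both copper comparisons gave a value, so that levels in 3 groups could be set side by side. These were 10 core genes, RPT5, RPN13, RPN7 and UMP1. Both comparisons contain the same parental libraries in copper, so an error in the level of those libraries moves both fold changes in opposite directions. The fold changes are thus not independent of each other, and no relation between them was tested. The parental level in copper worked out from either table differed by 0.025 to 0.028 log2 units over the 14 genes, with a median of 0.026, whereas the reference level of the mutant table lay a median of 0.73 log2 units above the unstressed parental level. The reference of the mutant table thus had the level of parental cells in copper, as the labels give it, and not that of unstressed parental cells. Levels in unstressed mutant cells are not given for these genes. PRE3 stood at 1687 CPM in mutant cells in copper, 965 CPM in parental cells in copper and 616 CPM in unstressed parental cells. RPT5 stood at 1538 CPM in mutant cells in copper, 650 CPM in parental cells in copper and 394 CPM in unstressed parental cells. UMP1 stood at 171 CPM in mutant cells in copper, 87.2 CPM in parental cells in copper and 54.4 CPM in unstressed parental cells.

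That each of the 14 genes had its lowest level in unstressed parental cells and its highest in mutant cells in copper follows from their choice, since all were listed as higher in both comparisons. The sum of both log2 fold changes was 1.37 to 1.61 over the 10 core genes and reached 1.94 in RPT5, or 2.58-fold to 3.83-fold with a median of 2.89-fold over the 14 genes. The difference between strains was the larger of both log2 fold changes in 12 genes and the smaller in RPN13 and PRE10. This tally leaves out PUP1, PRE7, SEM1 and PRE9, which were listed in parental cells and not between the strains, and the genes listed only between the strains. For PRE10 they were 0.74 between the strains and 0.75 in parental cells. Mutant cells in copper were not compared with unstressed mutant cells in the deposited tables, so the mutant's own change in copper is not analysed here.

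**Figure D3:**
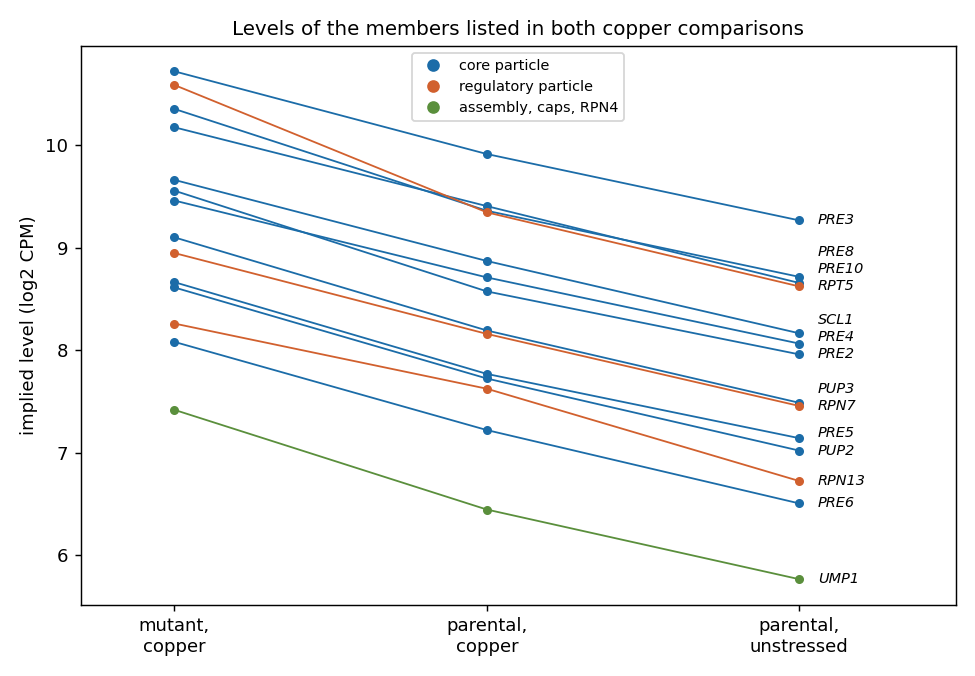
Levels (log2 CPM, worked out from the deposited log2 fold changes and average log2 CPM) of the 14 proteasome genes listed in both copper comparisons, in mutant cells in copper, parental cells in copper and unstressed parental cells. Each line is a gene, with no error shown and the level in parental cells in copper taken from their comparison with unstressed cells; every line descends from left to right, as for PRE3 at 1687 CPM in mutant cells in copper, 965 CPM in parental cells in copper and 616 CPM in unstressed parental cells.

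The subunits are present in fixed proportions in the complex, but their mRNA levels were spread. The libraries count a tag at the 3' end of each transcript, so that levels of different genes can be set side by side without division by length. How completely such tags were assigned to each gene was not checked, also not for RPT5 with its neighbour SEM1. Differences in level between genes and differences in counting therefore cannot be told apart here. In parental cells in copper the 14 core genes lay between 152 CPM (PRE6) and 983 CPM (PRE3), a 6.47-fold range, and the 19 regulatory genes between 90.5 CPM (RPN9) and 662 CPM (RPT5), a 7.32-fold range. The ATPase genes alone, which contribute to a single ring, spanned 6.89-fold from RPT2 to RPT5. The median level was 8.60 on the log2 CPM scale for beta ring genes, 7.80 for alpha ring genes, 7.67 for base genes and 7.02 for lid genes, so the core stood above the regulatory particle and the lid lowest, with broad overlap. RPN4 (4.62 on the log2 CPM scale) and NAS6 (4.77) lay below every subunit gene. Genes listed only in the parental comparison enter with their level from that table.

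**Figure D4:**
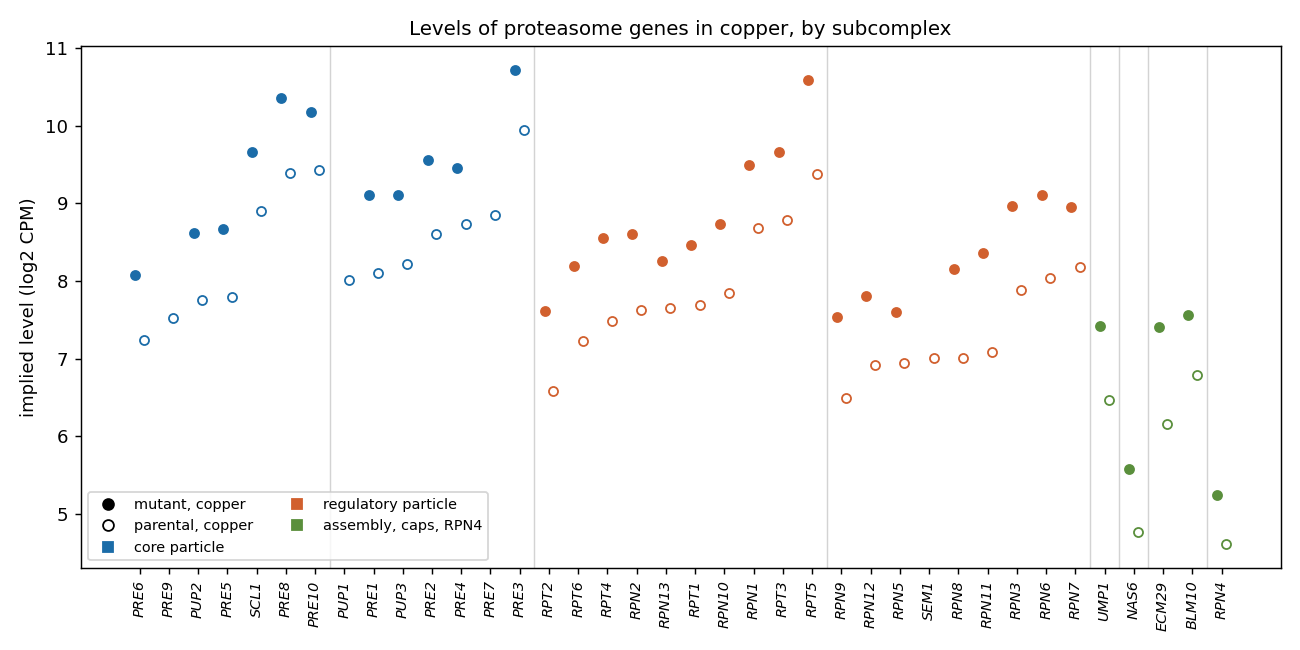
Levels (log2 CPM, worked out as described) of the proteasome genes in mutant cells in copper (filled points) and parental cells in copper (open points), by subcomplex, for the genes listed in a copper comparison. Core genes lie between 152 and 983 CPM and regulatory genes between 90.5 and 662 CPM in parental cells. Each filled point lies above its open point by choice, since filled points exist only for genes listed as higher in the mutant. Genes listed only in parental cells have no filled point, and no error is shown.

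Acetic acid left the particles out of the lists. In parental cells in acetic acid against unstressed parental cells, 0 of the 14 core and 0 of the 19 regulatory genes were listed, in a comparison where 1.34% of all genes tested were higher and 4.7% lower. The listed members were 2 of 40, both lower and both chaperones of base assembly. Each was among the 40 only because this comparison listed it, so that count cannot be set against the share of all genes tested. HSM3 (ZBIST_0305) was at 3.24 CPM in acetic acid, against 9.12 CPM in unstressed parental cells, a log2 fold change of -1.49 (standard error at most 0.50, FDR 0.00283). NAS2 (ZBIST_2297) was at 4.07 CPM in acetic acid, against 9.75 CPM in unstressed parental cells, or -1.26 (standard error at most 0.50, FDR 0.0110). These were the lowest levels of any proteasome gene listed, and neither gene was listed in copper.

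The remaining comparisons listed 0 of the 40 genes in either direction. They were the mutant in acetic acid against the unstressed mutant (5.44% of all genes tested listed), the mutant against the parental strain in acetic acid (1.15%) and the unstressed mutant against the unstressed parental strain (0.284%). The authors' edgeR test at an FDR below 0.05 gave these counts, and values of genes outside its limits were not analysed here, so a smaller change of proteasome genes in these conditions is not detectable in the tables. Of the 40 genes, 26 were listed in 1 table and 14 in 2.

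Genes of ubiquitin conjugation and removal and of substrate delivery to the proteasome were listed alongside it in copper. Of 24 names of this kind, chosen with results known, 18 were found. All 18 were higher in mutant than in parental cells in copper, where 13.5% of all genes tested were higher. The median log2 fold change of the 18 was 0.98, beside the 0.88 of the proteasome genes. A name was found only if its gene was listed somewhere, so the 18 of 18 is largely fixed by that. UBI4 (ZBIST_4542), the polyubiquitin gene and the neighbour of ECM29, had the largest log2 fold change at 2.12 (FDR 1.56e-06). UBP6 (1.47), a deubiquitinase that docks on the base, OTU1 (1.32) and NPL4 (1.30), partners of the Cdc48 unfoldase, DOA1 (1.22), a ubiquitin-binding cofactor of Cdc48, and DSK2 (1.21), a shuttle that carries ubiquitylated proteins, followed. In parental cells in copper against unstressed ones, where 2.45% of all genes tested were higher, 4 of the 18 were higher and 0 lower. These were SHP1 (1.06), UBI4 (0.78), DSK2 (0.71) and UBP6 (0.68), and the same limit of the search applies to this count.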

How the data were processed

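RNA of Zygosaccharomyces bailii IST302 and its Zbhaa1∆ mutant was made into 3' mRNA libraries (18 in all, 3 per group). Per the labels, the authors aligned reads with STAR 2.5.2a, counted them with HTSeq and compared groups with edgeR; reads were aligned to a reference sequence of IST302, whose version is not given in the sources used here. The 6 deposited tables hold, for genes with an FDR below 0.05 and a change of at least 1.5-fold, the authors' log2 fold change, average log2 CPM and FDR (an adjusted p-value). No library value, count or depth is in them, so every test quoted is the authors' own.

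ORFs were matched to homologue names in the study's supplementary tables, whose p-values served only to recover the number of genes tested (4883 to 4930; 4922, the median, was taken for the 2 comparisons without p-values). Levels per group were solved from the log2 fold change and average log2 CPM, taken as the log2 of the mean of both groups. Standard errors took the FDR as a two-sided p, which makes them too large, and intervals are 95% normal intervals. The arithmetic of these steps was checked on simulated data built with the same assumptions, so the assumptions themselves were not tested. Members and lists were chosen with earlier results of these data known; every member is named, and of other lists up to 6 listed genes with the largest change. Scripts ran in Python 3.11.15 with pandas 2.3.3 for tables, scipy 1.17.1 and numpy 2.4.6 for the arithmetic, and matplotlib 3.10.9 for plots. Alternatives were stricter FDR and fold limits, a minimum average log2 CPM of 8, another way of solving levels, and annotated genes (5409) as background.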

Additional observations from a re-analysis of the deposited data

How the results depend on the processing

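The counts of listed genes depended on the limits. In parental cells in copper against unstressed ones, 13 core and 4 regulatory genes were listed as higher. These became 4 and 1 with an FDR below 0.01, 2 and 2 above 0.807 on the log2 scale, and 0 and 0 above 2-fold. The gap of 71.8 percentage points between the core and the regulatory particle became 23.3, 3.76 and 0 at those limits. Between mutant and parental cells in copper, 11 core and 18 regulatory genes were listed. The core count became 7 above 0.807 on the log2 scale and 1 above 2-fold, and the regulatory count 8 above 2-fold. The gap of -16.2 percentage points became -2.26 with an FDR below 0.01 and -35 above 2-fold. Medians over genes with an average log2 CPM of at least 8 and levels solved the other way moved by less than 0.1 on the log2 scale. With all 5409 annotated genes as background, the shares of genes listed as higher in copper became 2.24% in parental cells and 12.3% between the strains.

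No paired analysis was possible because the tables hold no value per library, and no fit without a replicate was run, for the same reason. A search for the Rpn4 binding motif upstream of the genes was planned and not run, since no upstream sequence was at hand.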

Other observations

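Proteases outside the proteasome, mainly those of the vacuole, were found under 5 of 9 names searched. The vacuole is the other main route of protein breakdown in yeast. All 5 were higher in mutant than in parental cells in copper, where 13.5% of all genes tested were higher. A name was found only if its gene was listed somewhere, so this count is largely fixed by the search. The median log2 fold change over all 5 was 1.13, with PEP4 at 1.35, PRB1 at 1.28, APE2 (not a vacuolar enzyme) at 1.13, PRC1 at 0.87 and APE1 at 0.66. In parental cells in copper against unstressed ones, PRC1 (0.73, FDR 0.0462) and PEP4 (0.62, FDR 0.0271) were higher and the other 3 were not listed. Of 4 names of transcription factors that activate RPN4 in S. cerevisiae, only YAP1 was found, at 1.31 (FDR 0.00332) in mutant against parental cells in copper, and it was not listed in parental cells in copper against unstressed ones. The FDR values are those of the authors' edgeR test.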
